A study of Mus musculus with 4 samples.

Results

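Autophagy encloses parts of the cytoplasm in a double membrane, the autophagosome, and delivers them to the lysosome for breakdown. An initiating kinase complex and a lipid kinase complex start the membrane, a pair of ubiquitin-like conjugation reactions attach proteins of the ATG8 family to its lipid, and receptors then tie cargo to those ATG8 proteins. Hematopoietic stem cells are known to depend on the pathway to clear mitochondria and to survive a shortage of growth factors.

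The transcripts of 10 genes of this pathway were examined in mouse hematopoietic stem and progenitor cells after loss of *Bptf*, which encodes the largest subunit of the nucleosome remodeling factor NURF. The 10 genes were taken by symbol from the 18598 genes in the table, and the list was drawn up with earlier results of these data known. *Sqstm1* and *Nbr1* encode cargo receptors, *Map1lc3b* and *Gabarapl1* encode ATG8 proteins, *Atg3*, *Atg5*, *Atg7* and *Atg12* encode parts of the conjugation machinery, *Becn1* encodes a subunit of the lipid kinase complex, and *Ulk1* encodes the initiating kinase. RNA was sequenced from LSK cells, that is lineage-/Sca1+/c-Kit+ cells sorted from the long bones of C57BL/6 mice about 3 months old, with 5 mice pooled into each replicate. The *Bptf* cKO group (2 libraries) carried *Bptf* f/f with Mx1-cre, and the control group (2 libraries) was made up of littermates, described in the study as *Bptf* f/f mice. In the study both groups received pIpC, an RNA mimic that induces interferon and through it the Mx1 promoter. The controls thus carry the floxed alleles and were given the same inducer, but do not carry the recombinase. The study sorted the cells 10 days after cre induction, and interferon-stimulated genes were not examined here. Mx1-cre acts in many blood cells and in other tissues, and the effect of cre itself cannot be told apart from that of *Bptf* loss.

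The libraries held 14091054 to 30134742 reads on the listed genes, and both replicate 1 libraries were deeper than both replicate 2 libraries. Values are read counts that the authors divided by a size factor for each library, called normalized counts here. *Bptf* was read over the whole gene although the deletion removes 1 exon. It was at 5520 and 5850 normalized counts in the controls and at 3398 and 3320 in *Bptf* cKO cells. Its log2 difference was -0.76 (limma adjusted p = 0.0439), but the adjusted p was 0.0531 with edgeR. With any 1 of the 4 libraries left out *Bptf* did not pass, and its log2 difference ran from -0.80 to -0.72. *Kit* and *Ly6a* (Sca1), which define the sort gate, were present in every library, *Kit* at 13634 to 17051 and *Ly6a* at 726 to 1743. Of the marker lists of other cells, the 5 erythroid markers summed to 949.5 and 977 in the controls and to 203 and 292 in *Bptf* cKO cells. The 7 granulocyte and monocyte markers summed to 12535 in control replicate 2 and to between 36600 and 43246 in the other libraries. *Mpo* was the largest of them in every library, at 28963 and 6313 in the controls and 30321 and 28192 in *Bptf* cKO cells. *Elane* and *Prtn3* were also lowest in control replicate 2, whereas *Itgam*, *Csf1r* and *Lyz2* were highest in control replicate 1. The 7 pluripotency genes, known from embryonic stem cells, summed to 876 and 1133 in the replicate 2 libraries and to 72.9 and 28.6 in the replicate 1 libraries, where 5 and 6 of the 7 were at 0. B cell markers summed to 5097 and 1383 in the controls and to 2911 and 1758 in *Bptf* cKO cells. Megakaryocyte markers summed to 6394 and 5232 in the controls and to 4600 and 4800 in *Bptf* cKO cells, though 4 of the 5 overlapped gene by gene. Of 5 T cell markers *Cd4*, analysed alone, stood at 126 and 90.1 in the controls and at 79.9 and 50.8 in *Bptf* cKO cells. What part these differences have in the values below was not tested.

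None of the 10 genes passed the test for a difference between *Bptf* cKO and control cells. The test was limma on log2(normalized count + 1) with Benjamini-Hochberg adjustment over 14858 genes (those averaging 10 or more normalized counts), at an adjusted p under 0.05, and it called 110 genes, or 0.74% of those tested. The count among the 10 was also 0 with edgeR, which called 0.633% of all genes, and with DESeq2, which called 5.51%. When a term for replicate number was added to the limma fit, 2 of the 10 passed, *Map1lc3b* (limma adjusted p = 0.0308) and *Gabarapl1* (limma adjusted p = 0.0160). That fit called 2138 of the 14858 genes, and the labels do not tie replicate numbers to a shared source. Same-numbered libraries did deviate together over these genes (correlation 0.452, 2 pairs), and the cause was not tested. Without the replicate term and before adjustment, the same 2 genes had a limma p under 0.05, where 15.7% of all genes did. Both had lower values in *Bptf* cKO cells. In 4 of the 10 both *Bptf* cKO libraries lay above both controls, against 23.2% of all genes. In another 4 both lay below, against 23.8%. The median log2 difference (*Bptf* cKO minus control) over the 10 genes was 0.035, beside 0.0010 over all genes tested. Because each library is RNA from many sorted cells, fewer cells that use a gene and less of its RNA per cell cannot be told apart.

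**Figure D1:**
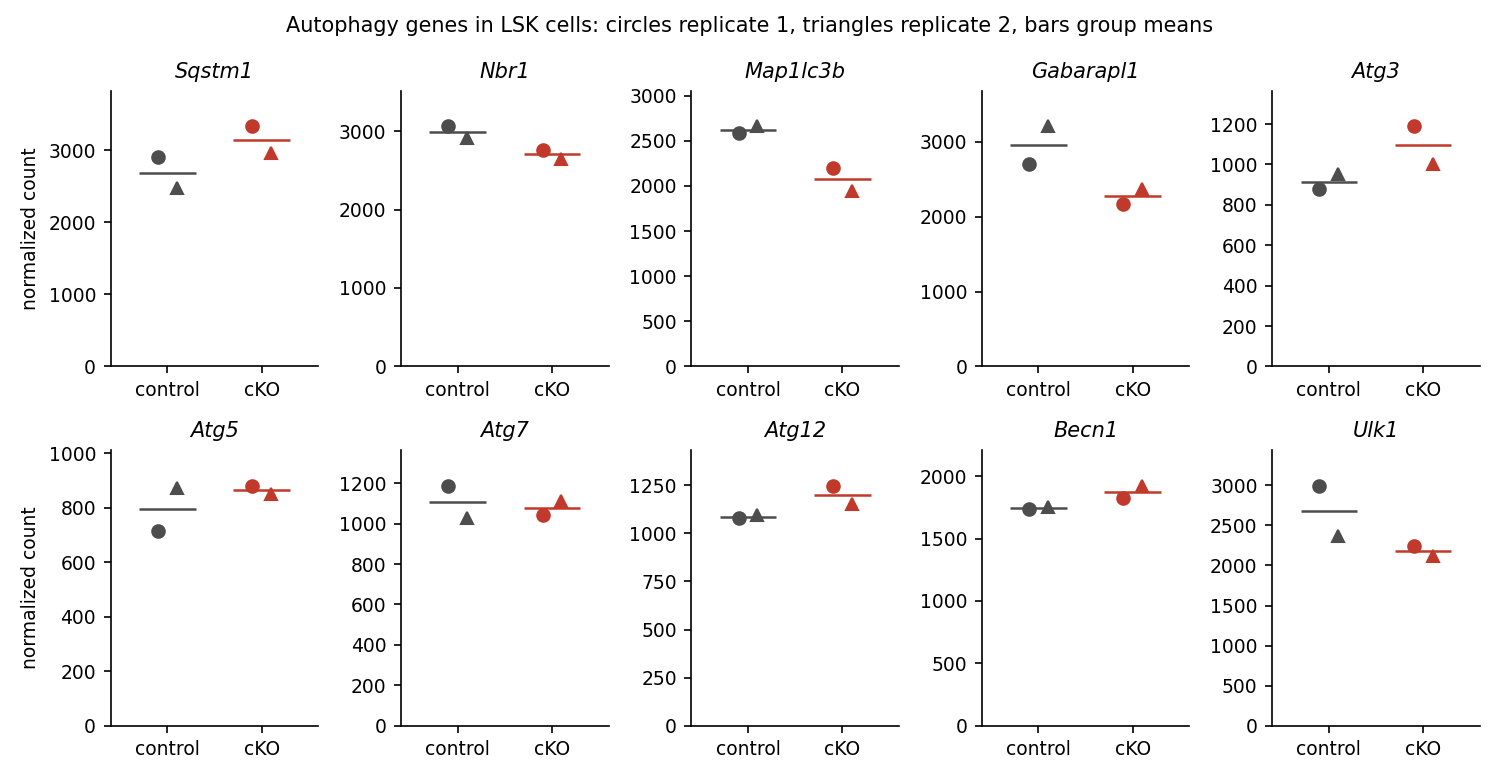
Normalized counts (linear axis) of the 10 autophagy genes in each of the 2 control and 2 *Bptf* cKO libraries; circles are replicate 1, triangles replicate 2 and bars the group means. *Map1lc3b*, *Gabarapl1*, *Nbr1* and *Ulk1* lie lower in both *Bptf* cKO libraries, *Sqstm1*, *Atg3*, *Atg12* and *Becn1* lie higher, and *Atg5* and *Atg7* overlap.

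The promoters of *Map1lc3b*, *Gabarapl1* and *Atg3* are printed below. With all 4 libraries, *Gabarapl1* and *Map1lc3b* had the lowest log2 differences of the 10 genes and *Atg3* the highest. None of the 3 passed the limma test on genotype alone. The difference of *Ulk1* (-0.29) was larger in size than that of *Atg3* (0.25). RefSeq (GRCm38.p6) gave promoters for 8 of the 10 genes, each running from 250 bases before to 50 bases after a transcript start, and no sequence is shown for *Becn1* or *Atg12*. Motifs of 3 kinds were searched on both strands, with hits in capitals. The E-box core CACGTG, found in elements of lysosomal and autophagy genes bound by TFEB, occurred in the promoters of *Atg3*, *Atg5* and *Atg7*, that is 3 of 8, and in 7.15% of all 32851 promoters. The *Atg7* window lies at a transcript start inside the gene as annotated, not at its first base. The antioxidant response core TGACNNNGC occurred in that of *Map1lc3b* and in 12.4% of all. The composite C/EBP-ATF element TGATGNAA occurred in none of the 8 and in 3.97% of all. Of the 3 promoters shown, none held hits of different motifs, so hits of different motifs could not overlap.
Map1lc3b: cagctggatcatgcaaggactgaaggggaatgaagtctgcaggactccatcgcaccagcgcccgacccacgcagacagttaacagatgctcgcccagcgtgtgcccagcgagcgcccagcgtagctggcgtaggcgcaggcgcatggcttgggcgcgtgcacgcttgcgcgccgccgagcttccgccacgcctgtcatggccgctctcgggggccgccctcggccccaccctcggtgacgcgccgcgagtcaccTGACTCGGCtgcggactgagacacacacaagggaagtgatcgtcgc
Gabarapl1: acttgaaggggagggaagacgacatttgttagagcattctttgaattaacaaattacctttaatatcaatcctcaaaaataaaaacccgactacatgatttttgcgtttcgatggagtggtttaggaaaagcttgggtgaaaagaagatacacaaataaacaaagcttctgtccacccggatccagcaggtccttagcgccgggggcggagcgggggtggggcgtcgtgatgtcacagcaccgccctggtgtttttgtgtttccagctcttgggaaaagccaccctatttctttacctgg
Atg3: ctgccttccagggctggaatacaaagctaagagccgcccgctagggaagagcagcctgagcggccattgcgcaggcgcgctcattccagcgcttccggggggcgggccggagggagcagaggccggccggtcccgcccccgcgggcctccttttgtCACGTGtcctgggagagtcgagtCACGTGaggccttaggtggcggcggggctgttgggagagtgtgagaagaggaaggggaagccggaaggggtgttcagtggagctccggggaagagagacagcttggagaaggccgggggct
The *Map1lc3b* promoter lies at chr8:121590188-121590487 on the plus strand, and its match begins 5 bases after the start. The *Gabarapl1* promoter, at chr6:129532942-129533241 on the plus strand, held no match. The *Atg3* promoter, at chr16:45158579-45158878 on the plus strand, held CACGTG at 94 and 71 bases before the start. A match describes letters only, and binding was not measured.

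*Map1lc3b* encodes LC3B, the ATG8 protein most used as a marker of autophagosomes, and spans 121590361 to 121598760 on chromosome 8 (plus strand, GRCm38). It stood at 2589 and 2660 normalized counts in the controls and at 2198 and 1950 in *Bptf* cKO cells. Both *Bptf* cKO libraries thus lay below both controls, and the difference was larger than the gap between libraries of either group. The means were 2624 ± 50.02 and 2074 ± 175 (SD, n = 2), a log2 difference of -0.34 (SE 0.10, 95% interval -0.61 to -0.077), or 0.789-fold. The limma adjusted p was 0.228, that from edgeR was 0.238 and that from DESeq2 was 0.192. The interval of this 1 gene, which is not adjusted for the number of genes tested, reaches from 0.657-fold to near no difference.

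*Gabarapl1*, another ATG8 protein, is a known target of FOXO transcription factors and lies on chromosome 6 from 129533160 to 129542346 (plus strand). Its values were 2701 and 3204 in the controls and 2172 and 2373 in *Bptf* cKO cells. The groups did not overlap, but the controls also stood well apart from each other. Its means were 2953 ± 356 and 2273 ± 142 (SD, n = 2), with a log2 difference of -0.37 (SE 0.12, 95% interval -0.68 to -0.063), the largest in size of the 10 genes with all 4 libraries. Without *Bptf* cKO replicate 1 it was -0.31, smaller in size than the -0.43 of *Map1lc3b*. Without control replicate 2 it was -0.25, smaller in size than those of *Ulk1* (-0.46), *Map1lc3b* (-0.32) and *Atg3* (0.31). The difference of *Gabarapl1* stayed the largest in size without *Bptf* cKO replicate 2 (-0.44) and without control replicate 1 (-0.50). The limma adjusted p was 0.252, and 29.8% of all tested genes had a difference larger in size.

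The 3 remaining ATG8 genes did not pass the test either. *Gabarap*, whose product acts late in autophagosome closure and fusion, was at 2527 and 2291 in the controls and at 2613 and 2657 in *Bptf* cKO cells (log2 difference 0.13, limma adjusted p = 0.597). *Map1lc3a* was at 154 and 149.7 in the controls and at 109.8 and 91.7 in *Bptf* cKO cells (-0.59, limma adjusted p = 0.310). *Gabarapl2* was at 324 and 381 against 309 and 248 (-0.34, limma adjusted p = 0.470). Of the 5 ATG8 genes, *Gabarap* was the single one with higher values in both *Bptf* cKO libraries.

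Levels of different genes were compared per kilobase of the longest spliced coding transcript in GENCODE vM21. On that scale the 5 ATG8 genes together gave 4709 and 4869 normalized counts per kilobase in the controls and 4278 and 4271 in *Bptf* cKO cells. *Gabarap* made up 39.7% and 34.8% of this sum in the controls and 45.2% and 46.0% in *Bptf* cKO cells, whereas *Map1lc3b* made up 21.7% and 21.6% against 20.3% and 18.0%. *Gabarapl1* made up 31.5% and 36.2% against 27.9% and 30.5%. The shares of *Gabarap*, *Map1lc3b* and *Gabarapl1* did not overlap between the groups, yet 2 libraries against 2 cannot give a two-sided exact permutation p below 0.333, which is the value each of the 3 shares reached.

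**Figure D2:**
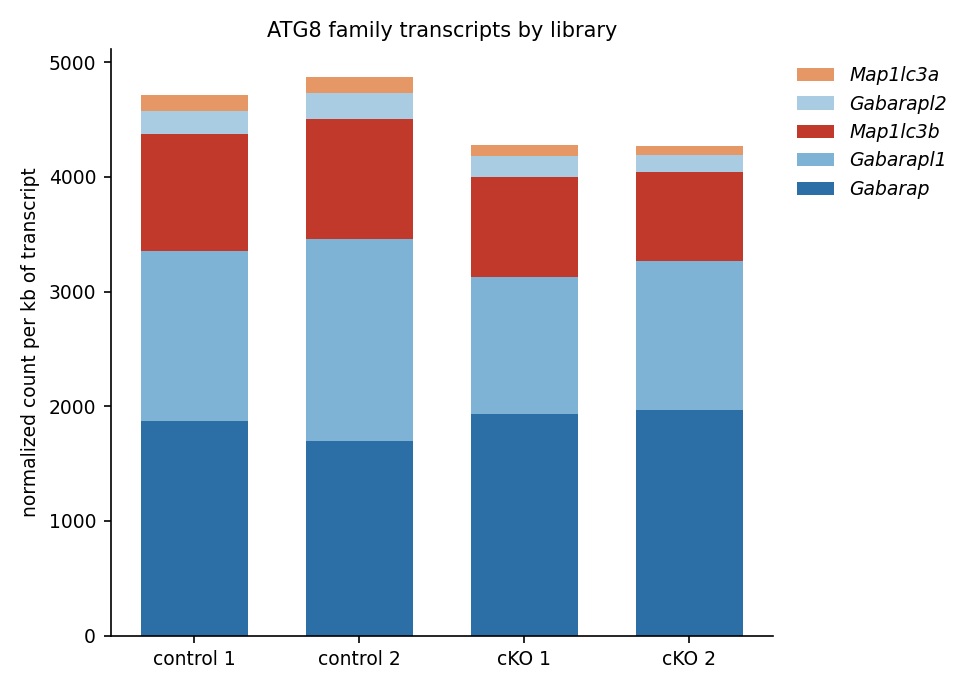
Normalized counts per kilobase of transcript of the 5 ATG8 genes in each library; each bar is 1 library and its segments are the genes, on a linear axis that starts at 0. The summed height is 4709 and 4869 in the controls and 4278 and 4271 in *Bptf* cKO cells, and the *Gabarap* segment takes a larger share of both *Bptf* cKO bars.

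*Atg3* encodes the E2-like enzyme that passes ATG8 proteins to phosphatidylethanolamine, and lies on chromosome 16 from 45158785 to 45188538 (plus strand). Its values were 879 and 952 normalized counts in the controls and 1188 and 1002 in *Bptf* cKO cells, so that the groups did not overlap while the *Bptf* cKO libraries differed more than the controls did. Its log2 difference of 0.25 (SE 0.13, 95% interval -0.085 to 0.59) was the highest of the 10 with all 4 libraries, with a limma adjusted p of 0.446. Without *Bptf* cKO replicate 1 it was 0.13, below the 0.15 of *Sqstm1* and the 0.14 of *Becn1* in the same fit. Without control replicate 1 it was 0.20, below the 0.34 of *Sqstm1*. The E1-like enzyme upstream of ATG3, *Atg7* (chromosome 6, 114643097 to 114860614, plus strand), was at 1187 and 1026 against 1043 and 1113. Here the groups overlapped, and the log2 difference was -0.034 (95% interval -0.35 to 0.28, limma adjusted p = 0.937), the smallest in size of the 10 with all 4 libraries. *Atg3* and *Atg7* act in the same reaction, and a difference between their log2 differences was not tested.

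*Atg12* and *Atg5* encode the conjugate that helps ATG3 place ATG8 proteins on the membrane. *Atg12* (chromosome 18, 46730144 to 46741580, minus strand) was at 1081 and 1094 in the controls and at 1248 and 1151 in *Bptf* cKO cells. The controls were almost equal, and both *Bptf* cKO libraries lay above them (log2 difference 0.14, 95% interval -0.13 to 0.41, limma adjusted p = 0.601). *Atg5* (chromosome 10, 44268358 to 44364291, plus strand) was at 715 and 872 in the controls and at 881 and 851 in *Bptf* cKO cells. The groups overlapped, and the log2 difference of 0.13 (95% interval -0.23 to 0.49, limma adjusted p = 0.722) was smaller than the gap between the control libraries; it turned to -0.010 without control replicate 1.

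*Sqstm1* encodes p62, the receptor that binds ubiquitinated cargo and is itself degraded by autophagy, so that its protein is often read as a measure of autophagic flux. Protein was not measured here. The gene lies on chromosome 11 from 50199366 to 50210827 (minus strand), and its values were 2903 and 2475 in the controls and 3333 and 2966 in *Bptf* cKO cells. The groups were barely apart, since the lower *Bptf* cKO library exceeded the higher control by 0.031 on the log2 scale. The log2 difference was 0.23 (SE 0.12, 95% interval -0.083 to 0.54, limma adjusted p = 0.453), about the same as the gap of 0.23 between the control libraries. It was 0.12 without control replicate 2, 0.15 without *Bptf* cKO replicate 1 and 0.34 without control replicate 1. *Nbr1*, a receptor of the same domain layout, lies on the plus strand of the same chromosome from 101552149 to 101581951, and stood at 3059 and 2913 against 2764 and 2641. Both *Bptf* cKO libraries lay below the controls (log2 difference -0.14, 95% interval -0.38 to 0.091, limma adjusted p = 0.528).

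*Ulk1*, the kinase that MTORC1 holds inactive in fed cells, lies on chromosome 5 from 110784488 to 110810097 (minus strand). It was at 2995 and 2371 in the controls and at 2249 and 2121 in *Bptf* cKO cells. The groups did not overlap, but control replicate 1 stood well above the other libraries, and the log2 difference of -0.29 (SE 0.14, 95% interval -0.64 to 0.065, limma adjusted p = 0.409) was smaller than the gap between the controls. It was -0.12 without that library and -0.46 without control replicate 2. In the latter fit *Gabarapl1* (-0.25) and *Map1lc3b* (-0.32) had differences smaller in size. *Becn1*, the subunit around which the PI3K complex is built and which BCL2 binds, lies on chromosome 11 from 101285952 to 101302286 (minus strand). Its values of 1739 and 1750 in the controls and 1830 and 1925 in *Bptf* cKO cells were close within each group and did not overlap between them, and its log2 difference was 0.11 (95% interval -0.14 to 0.35, limma adjusted p = 0.668).

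**Figure D3:**
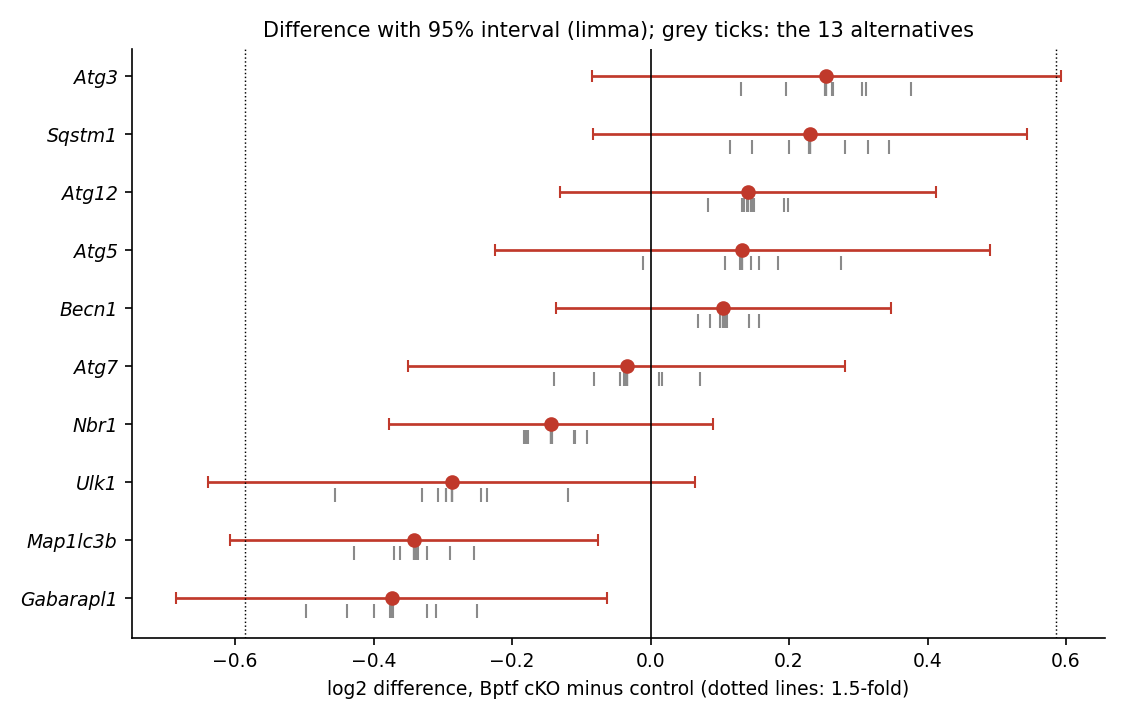
Fitted log2 difference (*Bptf* cKO minus control) of the 10 autophagy genes with 95% intervals from limma on 2 libraries a group; the solid line marks no difference, the dotted lines a 1.5-fold difference and the grey ticks the values under 13 alternative settings. The intervals of *Map1lc3b* (-0.61 to -0.077) and *Gabarapl1* (-0.68 to -0.063) lie below 0 and the other 8 contain it.

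The intervals show how large a difference these libraries leave possible. For 6 of the 10 genes, *Sqstm1*, *Nbr1*, *Atg5*, *Atg7*, *Atg12* and *Becn1*, the whole 95% interval lay within a 1.5-fold difference in either direction, as it did for 39.2% of all tested genes. The intervals of *Map1lc3b*, *Gabarapl1* and *Ulk1* reached down to 0.657-fold, 0.622-fold and 0.642-fold, and that of *Atg3* reached up to 1.51-fold. All 10 genes were well covered, with at least 603 reads in every library.

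Per kilobase of transcript, control cells had most *Gabarapl1*, at 1622 ± 195 (SD, n = 2), then *Map1lc3b* at 1036 ± 19.8 and *Sqstm1* at 1006 ± 113, whose libraries overlapped. *Nbr1* followed at 624 ± 21.6, then *Ulk1* at 515 ± 84.6 and *Atg3* at 445 ± 25.2, with the libraries of *Ulk1* and *Atg3* overlapping. The lowest were *Becn1* at 399.7 ± 1.92, *Atg5* at 337 ± 47.0, *Atg7* at 284 ± 29.4 and *Atg12* at 228 ± 1.93, and of these *Atg5* and *Atg7* overlapped. In *Bptf* cKO cells *Sqstm1* (1178) stood above *Map1lc3b* (819) in both libraries, and *Atg3* (532) stood above *Ulk1* (419) in both. Transcript lengths are those of 1 annotated isoform, so the order would move with another choice.

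Genes that overlap a member on the opposite strand could add reads if counting ignored strand, which is not given in the sources used here. The exon-overlapping partners had far lower counts: *Mrnip* (beside *Sqstm1*) stood at 97.7 to 132 normalized counts, *Zcchc14* (*Map1lc3b*) at 25.3 to 58.2, *Cntd1* (*Becn1*) at 40.3 to 60.7 and *1700101I11Rik* (*Gabarapl1*) at 9.10 to 19.8.

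Of 55 further autophagy genes, all tested, 0 passed the limma test, 0 passed with edgeR and 2 passed with DESeq2. The shares called over all tested genes were 0.74%, 0.633% and 5.51%. Their median log2 difference was -0.0054. Both *Bptf* cKO libraries lay above the controls in 11 and below them in 14, and 30 overlapped, shares close to the 23.2% above and 23.8% below over all tested genes. An unadjusted limma p was under 0.05 for 5 of the 55, a smaller share than the 15.7% of all tested genes, and their values were lower in *Bptf* cKO cells: *Uvrag* (PI3K complex), *Atg16l2* (conjugation), *Map1lc3a* (ATG8), and *Wdfy3* and *Fam134b* (receptors). *Fam134b*, a receptor for breakdown of the endoplasmic reticulum now named *Retreg1*, was at 1716 and 1832 in the controls and at 926 and 1058 in *Bptf* cKO cells. That log2 difference of -0.84 was the largest in size of the 55, with an adjusted p of 0.0613 from limma and 2.11e-05 from DESeq2. *Atg16l2*, a relative of the ATG16L1 scaffold that binds the ATG12 and ATG5 conjugate, was at 597 and 653 against 416 and 406, a log2 difference of -0.60 with an adjusted p of 0.134 from limma and 0.0416 from DESeq2. *Wdfy3* had a log2 difference of -0.30 (limma adjusted p = 0.235) and *Uvrag* one of -0.29 (limma adjusted p = 0.257). Among those of the 55 with a mean of at least 100, *Atg4a* had the highest log2 difference (0.25, limma adjusted p = 0.615). *Atg4c* followed (0.22, limma adjusted p = 0.612), and both encode proteases that process ATG8 proteins. Next was *Epg5*, a tether for fusion with the lysosome (0.20, limma adjusted p = 0.476).

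By role, the median log2 difference was -0.035 for 4 other initiation genes, 0.022 for 7 of the PI3K complex, -0.053 for 9 of ATG9 and lipid transfer, 0.10 for 3 of conjugation, -0.34 for the 3 further ATG8 genes, 0.15 for 4 ATG4 proteases, -0.16 for 12 receptors and 0.063 for 13 of fusion. Among the 12 receptors the groups did not overlap for 5, or 41.7%, against 47.0% of all tested genes, with 4 lower and 1 higher in *Bptf* cKO cells. *Optn*, which had the largest difference of the receptors after *Fam134b* (-0.53, limma adjusted p = 0.448), was among those that overlapped. Autophagosomes end in the lysosome, and of 26 lysosome genes 0 passed the limma, edgeR or DESeq2 test. Those tests called 0.74%, 0.633% and 5.51% of all tested genes. The median log2 difference of the 26 was 0.033. Unadjusted limma p was under 0.05 for 4 of the 26, about the 15.7% of all tested genes, with higher values in *Bptf* cKO cells for 2 of them, such as *Lamp1* (0.28), and lower values for *Tpp1* (-0.39) and *Gaa* (-0.27).

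**Figure D4:**
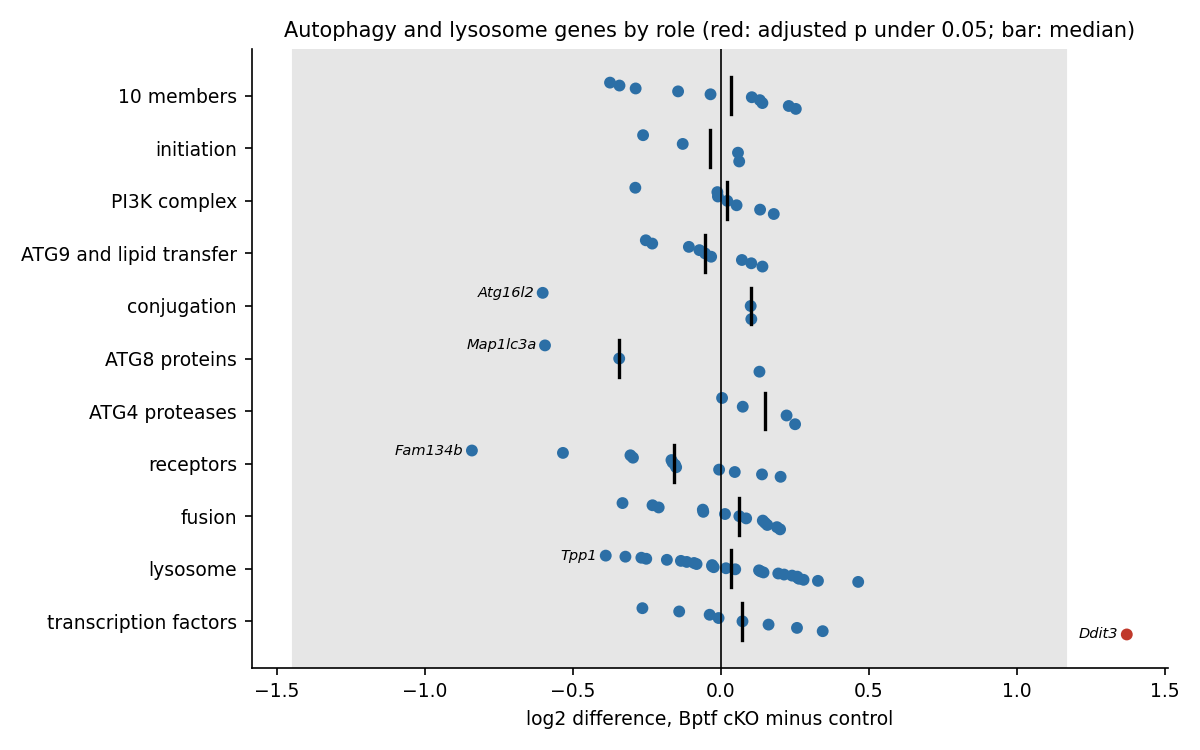
Log2 difference (*Bptf* cKO minus control) of the 10 members, the other autophagy genes by role, lysosome genes and transcription factors of the pathway; points are genes, black bars are medians, red marks a limma adjusted p under 0.05 and the grey band holds the central 95% of all tested genes (-1.44 to 1.17). *Ddit3*, at 1.37, is the single red point and the single one outside the band.

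Among 9 transcription factors known to act on autophagy genes, 1 passed the limma test, which called 0.74% of all tested genes. The list of 9 was drawn up with earlier results of these data known. *Ddit3* (CHOP), a factor of the endoplasmic reticulum stress response, was at 357 and 412 in the controls and at 903 and 1092 in *Bptf* cKO cells. It rose by 1.37 on the log2 scale (95% interval 0.97 to 1.78), with an adjusted p of 0.0429 from limma, 0.0498 from edgeR and 1.42e-08 from DESeq2. The log2 difference of *Ddit3* was 1.51 without *Bptf* cKO replicate 1 and 1.23 without *Bptf* cKO replicate 2. It was 1.27 without control replicate 1 and 1.47 without control replicate 2. The call was lost in each of these fits, which leave 1 library in a group and also change how many of all genes are called. *Atf4*, which acts with CHOP on autophagy genes, was at 6634 and 8840 against 8852 and 9469 (0.26, limma adjusted p = 0.501). TFEB and its relatives drive lysosome and autophagy genes, and *Tfeb* (0.074), *Tfe3* (-0.0072) and *Mitf* (0.34) did not pass. *Foxo1* (-0.26), *Foxo3* (-0.14), *Nfe2l2* (0.16) and *Zkscan3* (-0.037) did not pass either.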

How the data were processed

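RNA-seq libraries of 2 control and 2 *Bptf* cKO pools of LSK cells were analysed. Per the labels, the authors' processing notes name HISAT2, featureCounts, DESeq2 and the build GRCm38/mm10; versions, gene annotation, strand setting and the treatment of reads matching several places are not given in the sources used here. The deposited values are a signal, counts divided by a size factor for each library. Whole reads could be recovered for 100% of values (within 0.01 read). Listed genes have at least 11 reads in all. The authors' fold changes, p-values, statistics and overall means in the same table were not used.

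Genes with a mean of at least 10 (14858) were tested with limma 3.58.1 (R 4.3.3, mean-variance trend, genotype only, two-sided) on log2(value + 1), so that differences of low genes are understated. Alternatives were edgeR 4.0.16 quasi-likelihood and DESeq2 1.42.0 on the recovered reads, a replicate block, other pseudocounts, filters and scalings, and each library left out. The limma script was tested on simulated counts with changes larger than those of any member and with no shared replicate effect. That test does not show whether differences of the members' size would be found. Replicates are pools of separate animals as far as the labels tell, and p-values measure only the spread between these samples. The members and all gene lists were chosen with earlier results of these data known. Genes to name were chosen among the members, *Bptf*, *Kit* and *Ly6a*, all transcription factors, and from each other list by a rule. The rule took every gene with an adjusted p under 0.05 and, with a mean of at least 100, up to 3 with the largest rise and 3 with the largest fall. The text gives some of these. *Lamp1*, *Gaa*, *Uvrag* and *Wdfy3* are also named for their unadjusted p. Marker lists are given by their sums, with some granulocyte and monocyte markers also named. A lysosome gene within the rule is not reported here. Positions come from GENCODE vM21.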

Additional observations from a re-analysis of the deposited data

How the results depend on the processing

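The 10 members were recomputed under 13 alternatives, giving 130 values: 124 kept their direction and side of the threshold, 2 passed it and 4 reversed. The reversals concerned *Atg5*, -0.010 without control replicate 1 (range -0.010 to 0.27 with 1 library left out), and *Atg7*, 0.017 with libraries recentred on their medians, 0.013 without *Bptf* cKO replicate 1 and 0.071 without control replicate 1 (range -0.14 to 0.071). The median over the members ranged from -0.015 to 0.087; recentring brought the median of all genes to 0.053. Samples share replicate numbers that the labels do not tie to a shared source, and same-numbered samples deviated together (correlation 0.452 over 14858 genes, 2 pairs). With the replicate block, 2 members passed (*Map1lc3b*, limma adjusted p = 0.0308, and *Gabarapl1*, limma adjusted p = 0.0160), as did 4 of the 55 further autophagy genes, 3 lysosome genes and 2138 genes in all, against 110 without it. DESeq2 called 819 genes in all (319 higher and 500 lower, against 55 and 55 with limma) and 2 of the 55. With 1 library left out the count over all genes ranged from 1, without either *Bptf* cKO library, to 117, and was 64 without control replicate 2; 0 members passed in any of these fits. The lone library of a group is there assumed to vary like the others. The causes were not tested.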

Other observations

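The genes whose values were nearest to *Map1lc3b*, the member with the smallest limma p, were sought among 10814 genes by the Euclidean distance between log2 values centred over the 4 libraries. They were *Scrn2* (0.0302), *Gm10222* (0.0318), *Zfp930* (0.0323), *Usp45* (0.0333) and *Alcam* (0.0382). Their log2 differences ran from -0.36 to -0.31 and none passed the limma test. With 4 libraries many genes must lie near any given one.

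Ratios between pairs of members were computed after their values were seen. *Sqstm1* over *Map1lc3b* in normalized counts was 1.12 and 0.931 in the controls and 1.52 in each *Bptf* cKO library. *Sqstm1* over *Nbr1* was 0.949 and 0.850 against 1.21 and 1.12. Each pair of groups was apart, with a two-sided exact permutation p of 0.333, the smallest that 2 libraries against 2 can give.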
